A study of Mus musculus with 2 samples.

Results

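The genes described here are the adult alpha globins *Hba-a1* and *Hba-a2*, the adult beta globins *Hbb-bs* and *Hbb-bt*, and *Alas2*, the erythroid enzyme of heme synthesis. They were picked by symbol, and they are 5 of the 27998 genes counted in single cells of the mouse neurohypophysis (NH), the posterior lobe of the pituitary. They were chosen because their counts lay outside the cells that passed the quality limits, so their levels inside and outside those cells are descriptions and carry no test. All 5 were listed in both count matrices and in the deposited table of mean values per cluster, which held 15025 genes.

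The data were 2 pools of dissected NH tissue, pool 1 and pool 2. Each came from 5 male C57BL/6 mice of 3 months of age that received no treatment, and each was digested with Liberase TM and papain and run as a 10x droplet library, so the design holds 1 condition with 2 replicates. The unit is the UMI, a tag that marks each captured mRNA molecule, and levels are UMIs per 1e6 UMIs (CPM). The dissected tissue also carried intermediate lobe (IL) cells.

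From each pool the 1500 barcodes with most UMIs were taken, a barcode being the tag of a droplet. They held 1480737 UMIs in pool 1 and 1474311 in pool 2, down to 251 and 221 UMIs in the smallest. A barcode counted as a kept cell when it had over 1000 and under 10000 UMIs, over 400 and under 5000 genes, and a share of mitochondrial UMIs under 25%. These limits kept 273 cells with 699676 UMIs in pool 1 and 255 cells with 726706 UMIs in pool 2. The other 1227 and 1245 barcodes are called left out, and they held 781061 and 747605 UMIs. The pools shared 4 barcodes of the 1500, of which 1 was kept in a pool and none was rich in hemoglobin. Of 72 values of markers of the 7 cell types, 70 were highest in the type they mark. The study picked some of these markers from these same cells, and the types come from its clusters. The count therefore checks the labels of the types and is no separate support for them.

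Hemoglobin is a tetramer of alpha and beta globin chains, each holding a heme group that binds oxygen. Developing red cells make it in very large amounts, and *Alas2* starts their heme synthesis. Mammalian erythrocytes lose the nucleus and most organelles, the youngest of them still carry globin mRNA, and pituitary tissue is rich in blood vessels.

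Both globin gene pairs are tandem copies. On GRCm38 with GENCODE vM21, *Hba-a1* (ENSMUSG00000069919) lies at chr11:32283511-32284465 and *Hba-a2* (ENSMUSG00000069917) at chr11:32296489-32297298, both on the plus strand, 12023 bases apart. *Hbb-bt* (ENSMUSG00000073940) lies at chr7:103812524-103813996 and *Hbb-bs* (ENSMUSG00000052305) at chr7:103826534-103828096, both on the minus strand, 12537 bases apart. *Alas2* (ENSMUSG00000025270) lies at chrX:150547375-150570638 on the plus strand. The main transcripts of the globins have 3 exons each and that of *Alas2* has 11.

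The copies of a pair are almost the same in their coding exons, which bears on how well reads can be told apart. The coding sequences of *Hba-a1* and *Hba-a2* have 429 bases each and differ at 1 base, C381T, written with the base of *Hba-a1* first and counted from 1 at the start codon. Those of *Hbb-bs* and *Hbb-bt* have 444 bases each and also differ at 1 base, C417T, with the base of *Hbb-bs* first. The following 60 coding bases of each gene hold that base in capitals, at chr11:32284313-32284372, chr11:32297130-32297189, chr7:103826665-103826724 and chr7:103812656-103812715 in this order, each read along the strand of its gene.
Hba-a1: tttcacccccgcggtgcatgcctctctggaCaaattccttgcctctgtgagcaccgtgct
Hba-a2: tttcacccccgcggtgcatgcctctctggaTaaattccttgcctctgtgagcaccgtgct
Hbb-bs: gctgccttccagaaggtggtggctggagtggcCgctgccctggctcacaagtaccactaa
Hbb-bt: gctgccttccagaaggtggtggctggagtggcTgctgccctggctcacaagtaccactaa

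The read that carries the cDNA was 58 bases long. Over the last 300 bases of the main transcript, 23.9% of the 58-base windows of *Hba-a1* and 30.5% of those of *Hba-a2* occurred in no transcript of another gene. For *Hbb-bs* and *Hbb-bt* this share was 65.4% and 65.8%, and for *Alas2* it was 100%. The 3′ UTRs carried the difference between the beta globins, with an identity of 69.4%, while the 74 bases of the *Hba-a1* 3′ UTR matched *Hba-a2* throughout. The split of UMIs between copies is therefore uncertain, most of all for *Hba-a1* and *Hba-a2*, whose UMIs are summed as alpha globin where shares of the globin UMIs are given. The sum does not bring back reads that match both copies, if such reads were not counted. More windows are shared in the alpha pair, so the alpha shares could be too low. A UMI is counted near the 3′ end of an mRNA, and counts of different genes stand side by side without a comparison of their mRNA levels.

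The adult globin promoters are alike in their short motifs and differ from that of *Alas2*. In RefSeq's promoter sequences (GRCm38.p6), the 120 bases before the start that this source uses for each gene were searched on both strands for 4 motifs. These were TATAA for the box that places the transcription start, then CCAAT and, as letters bound by Krüppel-like factors, also CACCC, and as letters bound by GATA factors the motif GATAA. All 4 globin promoters held the first 3 motifs, a combination in 0.688% of 32851 promoters. The first base of TATAA lay 27, 30, 29 and 28 bases before the RefSeq start of *Hba-a1*, *Hba-a2*, *Hbb-bs* and *Hbb-bt*. These starts are not those of the GENCODE gene positions given above. The searched bases of *Hba-a1* (chr11:32283552-32283671) and *Hbb-bs* (chr7:103827929-103828048) lie wholly inside those positions. The searched bases of *Hba-a2*, *Hbb-bt* and *Alas2* reach into them. The *Alas2* promoter held no TATAA or CCAAT, had 3 CACCC and 1 GATAA on the reverse strand, and GATAA was in 10.5% of all promoters. Alone, TATAA was in 11.8%, CCAAT in 21.3% and CACCC in 31.7% of promoters. A match is a description of letters and not a bound site. One promoter per globin family and that of *Alas2* are shown, with matches in capitals and without bases inside the main GENCODE transcript, at chr11:32296372-32296488, chr7:103827929-103828048 and chrX:150547297-150547374, each along the strand of its gene.
Hba-a2: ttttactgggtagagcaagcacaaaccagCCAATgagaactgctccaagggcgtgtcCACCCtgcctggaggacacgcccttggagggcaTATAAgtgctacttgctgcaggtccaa
Hbb-bs: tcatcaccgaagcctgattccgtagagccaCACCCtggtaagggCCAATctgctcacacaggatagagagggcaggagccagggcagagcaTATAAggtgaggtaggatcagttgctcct
Alas2: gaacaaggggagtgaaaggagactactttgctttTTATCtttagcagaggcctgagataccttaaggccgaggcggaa

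Almost all hemoglobin mRNA of both pools was outside the kept cells. The 5 genes had 48 UMIs in the kept cells of pool 1 and 117 in those of pool 2, a level of 68.6 and 161 CPM (mean 115 ± 65.3, SD, n = 2). In the left-out barcodes they had 24952 and 33711 UMIs, which is 3.19% and 4.51% of all UMIs there, or 31946 and 45092 CPM. The level was thus 466-fold higher outside the kept cells in pool 1 and 280-fold higher in pool 2, a mean log2 ratio of 8.50 ± 0.52 (SD, n = 2). These folds rest on the study's limits for a cell, since with no gene minimum the ratio turned to a log2 value of −2.04.

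The alpha globins bind heme as the partner chains of beta globin. *Hba-a1* had 4 UMIs in the kept cells of pool 1 and 28 in those of pool 2, against 4346 and 5628 in the left-out barcodes. *Hba-a2* had 5 and 38 UMIs in kept cells, against 7169 and 9555. The kept counts of both genes in pool 2 came mostly from 1 cell, described below, without which they were 2 and 5 UMIs. Outside over inside, the CPM ratio of *Hba-a1* was 973 in pool 1, with a counting interval from 380 to 3574, and 195 in pool 2, from 135 to 294. That of *Hba-a2* was 1284, from 550 to 3957, and 244, from 178 to 346. Without that cell the ratios in pool 2 were 2723 (753 to 22490) for *Hba-a1* and 1849 (792 to 5696) for *Hba-a2*, above those of pool 1 in place of below them, with intervals that overlap those of pool 1.

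*Hbb-bs*, an adult beta globin of the haplotype that C57BL/6 mice carry, had most of the member UMIs of kept cells in pool 1. It had 36 and 43 UMIs there, in 33 cells of pool 1 and 29 cells of pool 2, against 12001 and 16430 UMIs outside. Its ratio was 299 in pool 1 and 371 in pool 2, with counting intervals from 216 to 427 and from 276 to 513, which overlap. *Hbb-bt*, its tandem copy, had 3 and 8 UMIs in kept cells against 1424 and 2069 outside, and its ratios of 425 and 251 had intervals from 145 to 2064 and from 127 to 583. *Alas2*, which makes the first precursor of heme in red cells, had no UMI in any of the 528 kept cells. It had 12 and 29 UMIs in the left-out barcodes, or 15.4 CPM (7.94 to 26.8) and 38.8 CPM (26.0 to 55.7). These levels were 3.58-fold and 9.40-fold the kept level that 3 counts would give, taken as the limit that a count of 0 allows. Both folds leave out the counting error of the 12 and 29 UMIs. These intervals and limits cover counting error only.

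**Figure D1:**
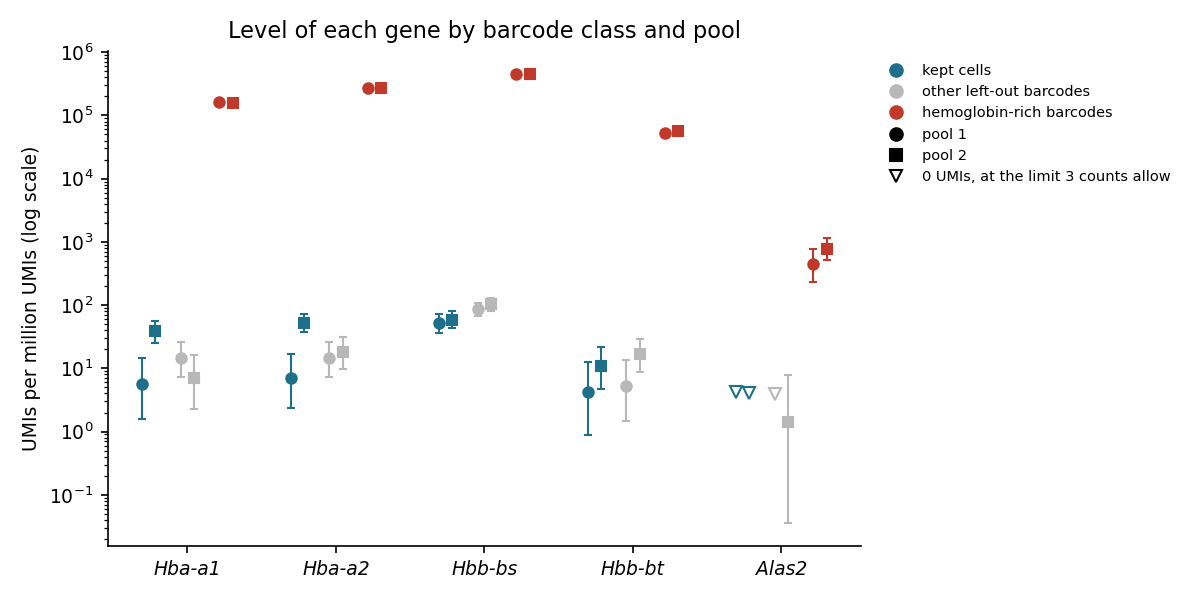
Level of each gene, in UMIs per 1e6 UMIs on a log axis, in kept cells, hemoglobin-rich barcodes and the other left-out barcodes of pool 1 (circles) and pool 2 (squares). Bars are exact 95% Poisson intervals, and open triangles mark sums with 0 UMIs at the limit of 3 counts. In hemoglobin-rich barcodes *Hbb-bs* reached 446891 and 457462 CPM, while its kept and other left-out sums lay between 51.5 and 103 CPM.

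The hemoglobin UMIs were not spread over the left-out barcodes but concentrated in a few of them. A barcode is called hemoglobin-rich here when at least 50% of its UMIs came from the 5 genes, a class drawn after the counts were seen, so its genes are described without a test. There were 22 such barcodes in pool 1 and 31 in pool 2. They held 99.4% and 99.3% of the UMIs of the 5 genes in the 1500 barcodes of their pool. In pool 1 a further 10614 such UMIs lay in smaller barcodes, described at the end. The share of their UMIs from these genes ran from 54.4% to 96.9% in pool 1 (median 94.0%) and from 72.6% to 97.6% in pool 2 (median 94.6%). Outside the class the highest share in any barcode was 0.804% in pool 1 and 2.26% in pool 2. Below the 50% line no barcode of either pool lay between 2.26% and 50%, and above it 2 barcodes of pool 1 and 1 of pool 2 lay at up to 75%.

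Hemoglobin-rich barcodes had few genes, over a wide range of UMIs. Their UMIs ran from 251 to 3040 in pool 1 (median 1061) and from 223 to 3811 in pool 2 (median 683). Their genes ran from 17 to 142 (median 45.5) and from 17 to 261 (median 35). Kept cells, which the limits hold over 400 genes, had a median of 964 and 1136 genes and of 2050.0 and 2330.0 UMIs. The other left-out barcodes had a median of 113 and 90 genes and of 387 and 360.5 UMIs, so a low gene number alone did not set the class apart. All 53 hemoglobin-rich barcodes failed the minimum of 400 genes. Of these, 11 of pool 1 and 18 of pool 2 failed the UMI minimum too, 11 and 13 passed it, and none failed the mitochondrial limit. The gene minimum alone left out 12 barcodes in pool 1 and 15 in pool 2, and 11 and 13 of these were hemoglobin-rich. Counting UMIs, genes and shares without the 5 genes kept the same number of cells, 528. The sequences of any 2 hemoglobin-rich barcodes of a pool differed at 6 or more bases in pool 1 and at 7 or more in pool 2.

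**Figure D2:**
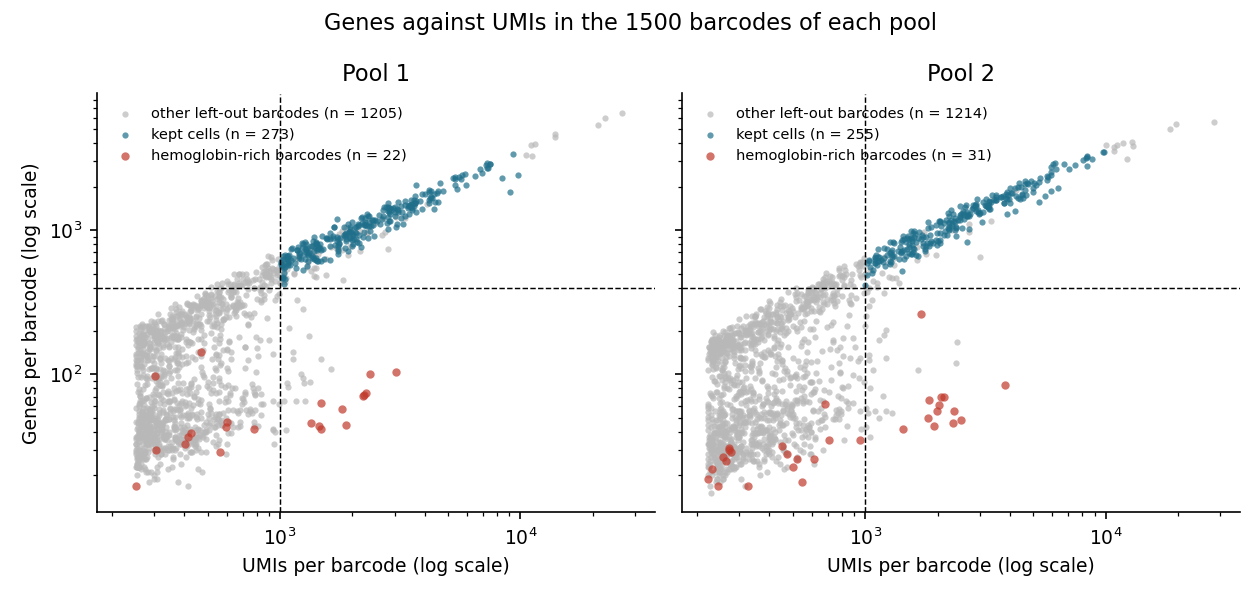
Genes against UMIs of each of the 1500 barcodes of pool 1 (left) and pool 2 (right), both axes on a log scale. Dashed lines are the minimum of 1000 UMIs and of 400 genes, and the 22 and 31 hemoglobin-rich barcodes (red) all lie under the gene line, on both sides of the UMI line, at no more than 142 genes in pool 1 and 261 in pool 2.

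Within the class the globin genes varied together from barcode to barcode. *Hba-a1* had from 50 to 533 UMIs per barcode in pool 1 (median 169) and from 35 to 562 in pool 2 (median 106). *Hba-a2* had from 68 to 925 (median 276.5) and from 58 to 952 (median 185). *Hbb-bs* had from 54 to 1216 (median 471) and from 68 to 1919 (median 274). Each of these was present in all 53 barcodes. *Hbb-bt* had from 0 to 257 UMIs (median 50.5) and from 1 to 246 (median 37) and was missing in 1 barcode of pool 1. *Alas2* had 12 UMIs in 8 of 22 barcodes and 28 UMIs in 16 of 31, at most 3 and 5 per barcode. Across the 22 and 31 barcodes, log10 UMIs of any pair of globin genes had a Pearson r between 0.90 and 0.99. These r values describe barcodes that share a library and differ in total UMIs, which raises all pairs.

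The make-up of the globin UMIs differed little between the pools. Alpha globin made up 46.3% of the globin UMIs of hemoglobin-rich barcodes in pool 1 (exact interval 45.6% to 46.9%) and 45.2% in pool 2 (44.6% to 45.7%). *Hbb-bs* made up 48.0% and 48.7%, and *Hbb-bt* 5.71% and 6.13%. There were 4.83 *Alas2* UMIs per 10000 globin UMIs in pool 1 (exact Poisson interval 2.50 to 8.44) and 8.34 in pool 2 (5.54 to 12.1), and these intervals overlap.

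The alpha share was higher in the smaller hemoglobin-rich barcodes. In barcodes over 1000 UMIs it was 44.4% in pool 1 (11 barcodes, exact interval 43.7% to 45.1%) and 43.0% in pool 2 (13 barcodes, 42.4% to 43.6%). In those with at most 1000 UMIs it was 55.0% (11 barcodes, 53.5% to 56.5%) and 53.1% (18 barcodes, 52.0% to 54.3%). These intervals cover counting error only, and single barcodes spread more widely. They overlapped, from 38.8% to 50.7% for the large and from 42.6% to 68.2% for the small ones of pool 1, and from 37.7% to 52.0% and from 41.6% to 66.4% in pool 2. The Pearson r of the alpha share with log10 globin UMIs was −0.81 over 22 barcodes and −0.79 over 31, as a description of barcodes from 1 library each. For the share of *Hbb-bt* among the beta globin UMIs the sums leaned the other way, less clearly. It was 9.33% in the small and 10.9% in the large barcodes of pool 1 (exact intervals 8.07% to 10.7% and 10.3% to 11.4%) and 10.2% and 11.4% in pool 2 (9.24% to 11.3% and 10.9% to 11.9%). These intervals overlap. The medians over barcodes were 10.1% for the small and 9.24% for the large in pool 1, the opposite order, and 9.33% and 11.0% in pool 2. The Pearson r of this share with log10 globin UMIs was 0.53 over 22 barcodes and 0.55 over 31, and Spearman's rho was 0.35 and 0.52. These too describe barcodes from 1 library each.

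**Figure D3:**
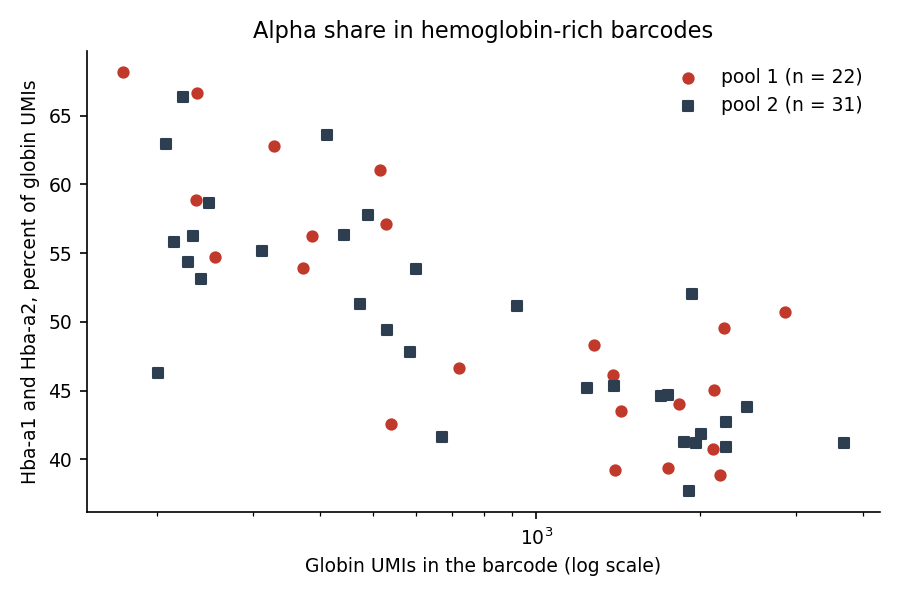
Share of *Hba-a1* and *Hba-a2* among the globin UMIs of each hemoglobin-rich barcode, in percent, against its globin UMIs on a log axis, for pool 1 (circles, n = 22) and pool 2 (squares, n = 31). The small barcodes reach 68.2% and 66.4%, and those over 1000 UMIs stay at or under 50.7% and 52.0%.

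Outside the class the globins were scarce and their make-up was another one. The other left-out barcodes held 91 UMIs of the 5 genes in 1205 barcodes of pool 1 and 104 UMIs in 1214 barcodes of pool 2, a level of 121 and 146 CPM (mean 133 ± 18, SD, n = 2). In all but 6 and 3 of the barcodes with such a UMI there was a single one. With every barcode thinned to 200 UMIs, 3.46% and 3.89% of these barcodes would hold a member UMI, against 1.60% and 1.82% of kept cells and 100% of hemoglobin-rich barcodes. The unthinned shares were 6.97%, 8.32%, 14.7%, 16.1% and 100%, at median depths of 387 and 360.5 UMIs in the other left-out barcodes and 2050.0 and 2330.0 UMIs in kept cells. Alpha globin made up 24.2% of their globin UMIs in pool 1 (exact interval 15.8% to 34.3%) and 17.5% in pool 2 (10.7% to 26.2%), under the intervals of the hemoglobin-rich barcodes in each pool. *Hbb-bs* made up 71.4% and 70.9%. In kept cells with at most 10 such UMIs, alpha globin made up 18.8% (8.95% to 32.6%) and 16.3% (6.81% to 30.7%) and *Hbb-bs* 75% and 67.4%, which overlap the other left-out barcodes and not the hemoglobin-rich ones. This limit leaves out 1 cell of pool 2, described below, and over all kept cells of that pool alpha globin made up 56.4% (46.9% to 65.6%), above the hemoglobin-rich barcodes.

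**Figure D4:**
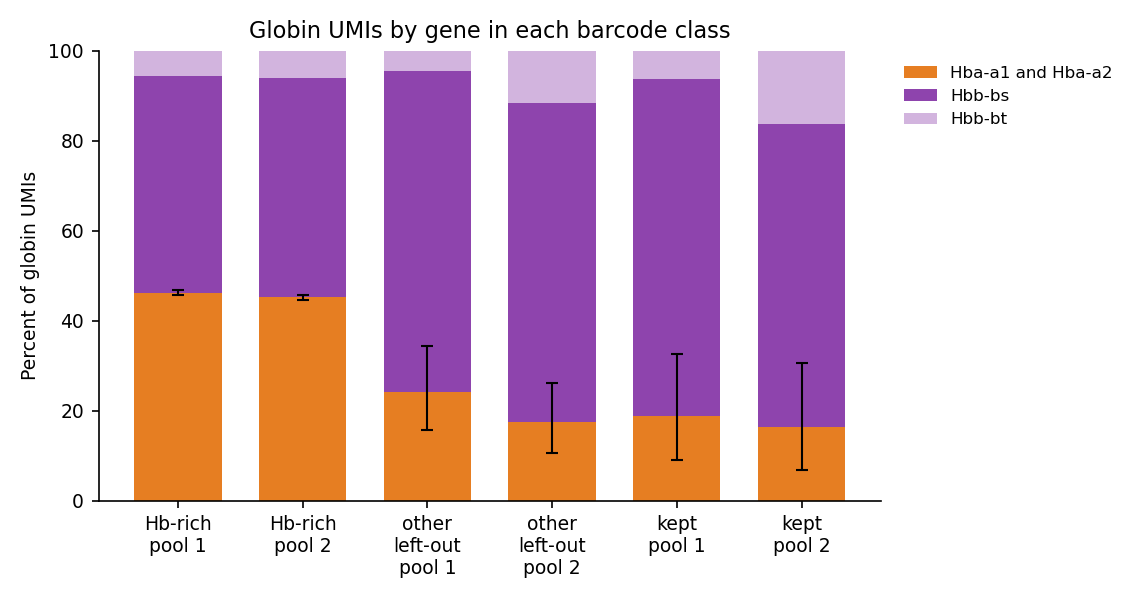
Percent of globin UMIs from alpha globin (*Hba-a1* and *Hba-a2*), *Hbb-bs* and *Hbb-bt* in hemoglobin-rich barcodes, other left-out barcodes and kept cells with at most 10 member UMIs of each pool. Bars on the alpha part are exact 95% binomial intervals, which lie at 44.6% to 46.9% in hemoglobin-rich barcodes and at or under 34.3% elsewhere.

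Hemoglobin-rich barcodes held little RNA besides the globins, and some of it came from other genes of red cells. Their UMIs outside the 5 genes came to 1848 in pool 1 and 2149 in pool 2, with a median of 70 and 39 per barcode. A list of 40 erythroid genes, 39 of them in the matrix, had 99 and 98 of these UMIs, or 53571 and 45603 per 1e6. The same list had 750 and 807 per 1e6 in kept cells and 465 and 457 in the other left-out barcodes. The UMIs fell on 10 and 11 of the 39 genes, where 639 (2.28%) and 610 (2.18%) of all 27993 genes other than the members had a UMI in these barcodes. The class was drawn on hemoglobin and the list was chosen with earlier results known, so these are counts and no test. *Bpgm*, which makes the 2,3-bisphosphoglycerate that tunes the oxygen affinity of hemoglobin, had 16 and 13 UMIs, or 8658 and 6049 per 1e6, against 35.7 and 27.5 in kept cells. *Slc25a37*, the mitochondrial iron importer mitoferrin 1, had 10 and 12 UMIs, or 5411 and 5584 per 1e6 against 20.0 and 23.4. *Bnip3l*, needed to clear mitochondria from maturing red cells, had 15 and 15 UMIs, or 8117 and 6980 per 1e6 against 147 and 146. *Ube2l6*, *Mkrn1* and *Gpx1* had between 10 and 13 UMIs in each pool.

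Several early or membrane genes of the lineage were not seen at this depth. *Slc4a1*, *Hemgn*, *Klf1* and *Gata1* had no UMI in hemoglobin-rich barcodes, which at these totals allows up to 1623 per 1e6 in pool 1 and 1396 in pool 2. *Fech*, which puts iron into heme, had 3 and 8 UMIs, and the other 7 genes of the heme synthesis list had none. Of 23 genes of heme and iron handling in the matrix, 4 and 5 had UMIs, led by the ferritin chains, with *Ftl1* at 12 and 31 UMIs and *Fth1* at 10 and 11. Among other globins, the embryonic *Hbb-y* and the theta globin *Hbq1a*, next to the adult clusters, had 1 UMI each in pool 1 and 2 each in pool 2, all in hemoglobin-rich barcodes. *Hba-x*, *Hbq1b*, *Hbb-bh1* and *Hbb-bh2* had none in the 1500 barcodes of either pool.

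Markers of other cells gave few UMIs in the same barcodes. The lists of platelets, neutrophils and B cells had no UMI there in either pool. Of the markers of the 7 cell types, those of T-cell like cells and VLMC (vascular and leptomeningeal cells) had none. Their levels in the other classes were also under these limits. Pituicyte, macrophage/microglia and epithelial-like markers had between 0 and 2 UMIs per pool. Endothelial markers had 2 and 3 UMIs, all from 1 gene in each pool, which is 0.108% and 0.140% of the UMIs outside the 5 genes (exact intervals 0.0131% to 0.391% and 0.0288% to 0.408%), against 0.0253% and 0.0334% in the other left-out barcodes and 0.0445% and 0.0579% in kept cells. IL markers had 8 and 22 UMIs, 0.433% and 1.02% of the UMIs outside the 5 genes, against 2.79% and 3.25% in the other left-out barcodes. Mitochondrial genes made up 33.3% and 31.9% of the UMIs outside the 5 genes. The other left-out barcodes were at 43.6% and 43.3% and kept cells at 11.2% and 9.86%, classes that the mitochondrial limit helped to draw. The part of these other RNAs in the values above was not tested.

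Summed over all left-out barcodes, few genes passed the test against kept cells. With edgeR's quasi-likelihood test on UMI sums per pool and class, 29 of 8152 genes tested (0.356%) were called, the rule being a Benjamini-Hochberg adjusted p up to 0.05 together with a natural log fold change of 1 or more in size. Of these, 27 (0.331%) were higher and 2 (0.0245%) lower in the left-out barcodes. All 5 members are among those higher, and since they were chosen on this contrast nothing is read from that. The median raw log2 ratio over the genes tested was −0.69 in pool 1 and −0.95 in pool 2, and fitted changes are relative to this shift.

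Most of the erythroid genes tested were not called. Of the 40 erythroid genes 14 passed the filter on low counts, 1 was called higher and none lower, 7 had an unadjusted p under 0.05, and the median log2 change was 0.41. These 7 went in both directions, with *Car2*, given below, and *Pim1* (log2 −0.84, edgeR adjusted p = 0.59) lower in left-out barcodes. Over all 8152 genes tested, 603 (7.40%) had an unadjusted p under 0.05, 0.356% were called and the median was 0.0075. *Ube2l6* (log2 1.24, edgeR adjusted p = 0.35), *Bpgm* (1.2, adjusted p = 0.23) and *Slc25a37* (0.88, adjusted p = 0.60) were not called. *Car2*, carbonic anhydrase 2, had 16 and 23 UMIs in kept cells and 0 and 4 outside (log2 −2.51, edgeR adjusted p = 0.20), and it was called lower with the pool as a replicate block, with no filter on low counts, and against left-out barcodes of at most 1000 UMIs. Without the hemoglobin-rich barcodes no gene of the list was called, and DESeq2 called none of the 14, of which 4 had an unadjusted p under 0.05.

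The heme lists gave no call. Of 7 heme synthesis genes tested none was called by edgeR, 2 had an unadjusted p under 0.05, among them *Urod* (log2 0.80), and the median log2 change was 0.41. In DESeq2 none was under an unadjusted p of 0.05, and none had an adjusted p, so that tool could call none of them. *Fech* had a log2 change of −0.05, with 20 and 40 UMIs in kept cells and 14 and 21 outside, and *Uros*, which closes the porphyrin ring, one of 0.71. Of 14 genes of heme and iron handling none was called by edgeR, with a median of 0.13, and none had an unadjusted p under 0.05 in either tool. DESeq2 gave only some of them an adjusted p, among them *Fth1*, *Ftl1* and *Pcbp2*, and called none of those. *Fth1* and *Ftl1*, the ferritin chains, had log2 changes of 0.13 and 0.25, and *Pcbp2*, an iron chaperone, one of 0.11. Of the platelet, neutrophil and B cell lists 3, 1 and 0 genes were tested. None was called by edgeR, and none had an unadjusted p under 0.05 in either tool. DESeq2 gave these genes no adjusted p, so it could call none of them. The platelet genes *Gng11*, *Itga2b* and *Pf4* had log2 changes of 0.06, −0.86 and 0.71, and *Lcn2*, the one neutrophil gene tested, is also a marker of the epithelial-like cells (0.32). *S100a8* and *S100a9*, calcium-binding proteins of neutrophils, had 381 and 226 UMIs in the other left-out barcodes of pool 1 and 0 in those of pool 2, 4 and 2 in kept cells of pool 1, and none in hemoglobin-rich barcodes. Of the B cell list *Cd79b*, *Ms4a1* and *Cd79a* had most UMIs, with 10, 5 and 2 over all barcodes of both pools. No other globin passed the filter, and *Cygb*, cytoglobin, had 4 and 6 UMIs in kept cells and 7 and 6 in the other left-out barcodes, while *Mb*, myoglobin, had 4 over all barcodes.

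Other called genes with large changes were not erythroid. Hormone genes of the anterior lobe were higher in left-out barcodes, namely growth hormone *Gh* (log2 4.08, edgeR adjusted p = 0.00098), the glycoprotein hormone subunit *Cga* (3.85, adjusted p = 0.0020) and *Lhb* (3.01, adjusted p = 0.036). Their levels differed between the pools. Left-out barcodes of pool 1 and pool 2 had 5699 and 29383 CPM of *Gh*, 84.5 and 625 of *Cga*, and 19.2 and 139 of *Lhb*. Kept cells had 1072 and 2789, 20.0 and 70.2, and 7.15 and 27.5 CPM in the same order. *mt-Cytb* was also called higher (log2 3.01). The limit on the mitochondrial share helped to draw the classes, so nothing is read from higher mitochondrial genes in left-out barcodes. *Ly6c2* (−4.04, edgeR adjusted p = 0.0039) was lower. The genes most like the members over the 16 sums of 7 types and the left-out barcodes in each pool were mitochondrial, with a Pearson r of log2(CPM + 100) of 0.82 for *mt-Atp6*, 0.81 for *mt-Co3*, 0.80 for *mt-Nd1* and *mt-Nd3*, and 0.78 for *mt-Nd2*. These sums share libraries and mice, and the 2 left-out sums stand far above the others for the members. Barcodes over the mitochondrial limit are in the left-out sums by definition, which raises mitochondrial genes there too.

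Inside the kept cells the members were found as single UMIs in most cell types. In pool 1, 40 of 273 cells (14.7%, exact interval 10.7% to 19.4%) held a UMI of the 5 genes, and in pool 2 it was 41 of 255 (16.1%, 11.8% to 21.2%). Of these, 32 and 37 cells held 1 UMI and 8 and 3 held 2. With each cell thinned to 1000 UMIs the share would be 7.35% and 7.46%. None of the 7 types is an erythroid one, *Alas2* was at 0 in all of them, and no expression by these cells is read from the shares.

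A single kept cell stood apart. It was an IL cell of pool 2 with 74 UMIs of the 5 genes, made of 26 *Hba-a1*, 33 *Hba-a2*, 14 *Hbb-bs* and 1 *Hbb-bt*, and it held 63.2% of all such UMIs in the kept cells of its pool. The next highest kept cell of either pool had 2. It had 3279 UMIs, 1579 genes and a mitochondrial share of 10.7%, within the limits, and 232 UMIs of *Pomc*, the hormone precursor of IL cells. Alpha globin made up 79.7% of its globin UMIs (exact interval 68.8% to 88.2%), where hemoglobin-rich barcodes ran from 37.7% to 68.2%. Without it the level in kept cells of pool 2 was 59.4 CPM and the mean of the pools 64.0 ± 6.48 (SD, n = 2), and the log2 ratio of left-out barcodes to kept cells was 9.22 ± 0.50.

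By cell type, no type held the members at a level that both pools set apart. IL cells had 42.7 and 365 CPM (12 and 91 UMIs, mean 204 ± 228), and 42.7 and 69.0 CPM without that cell (55.8 ± 18.6). Vascular endothelia had 3 and 0 UMIs in 6 and 7 cells (264 and 0 CPM). The endothelial level thus rests on 1 pool. Macrophage/microglia, the phagocytes of the tissue, had 78.9 and 102 CPM from 7 and 11 UMIs. T-cell like cells had 72.8 and 68.8 CPM from 4 and 2 UMIs. Pituicytes, the glial cells of the NH, had 89.1 and 51.3 CPM from 21 and 13 UMIs. Epithelial-like cells had 1 and 0 UMIs (51.8 and 0 CPM), and VLMC had 0 UMIs in 11 cells, which allows up to 27.3% of cells with a UMI. In this order of means, all neighbours overlapped between pools except macrophage/microglia and T-cell like cells, whose counting intervals overlap, 31.7 to 163 and 19.8 to 186 CPM in pool 1 and 50.9 to 182 and 8.33 to 248 CPM in pool 2.

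The shares of cells with a UMI, over both pools, ran from 0 in VLMC to 21.3% in the cluster that the study's table names neural progenitor a (exact interval 13.5% to 30.9%). Thinned to 1000 UMIs per cell, this cluster was no longer the highest. Its mean over the pools was 7.89% (6.60% in pool 1 and 9.18% in pool 2). The highest mean was 11.9% in vascular endothelia, from 23.8% and 0% in 6 and 7 cells. Next came 10.6% in pituicytes b (15.4% and 5.76%), 10.3% in microglia a/macrophage (7.45% and 13.2%) and 8.51% in pituicytes a (8.83% and 8.19%). By type, the thinned shares were 9.61% and 6.64% in pituicytes, 5.11% and 8.30% in IL cells and 6.01% and 12.5% in macrophage/microglia of pool 1 and pool 2. These ranges overlap.

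**Figure D5:**
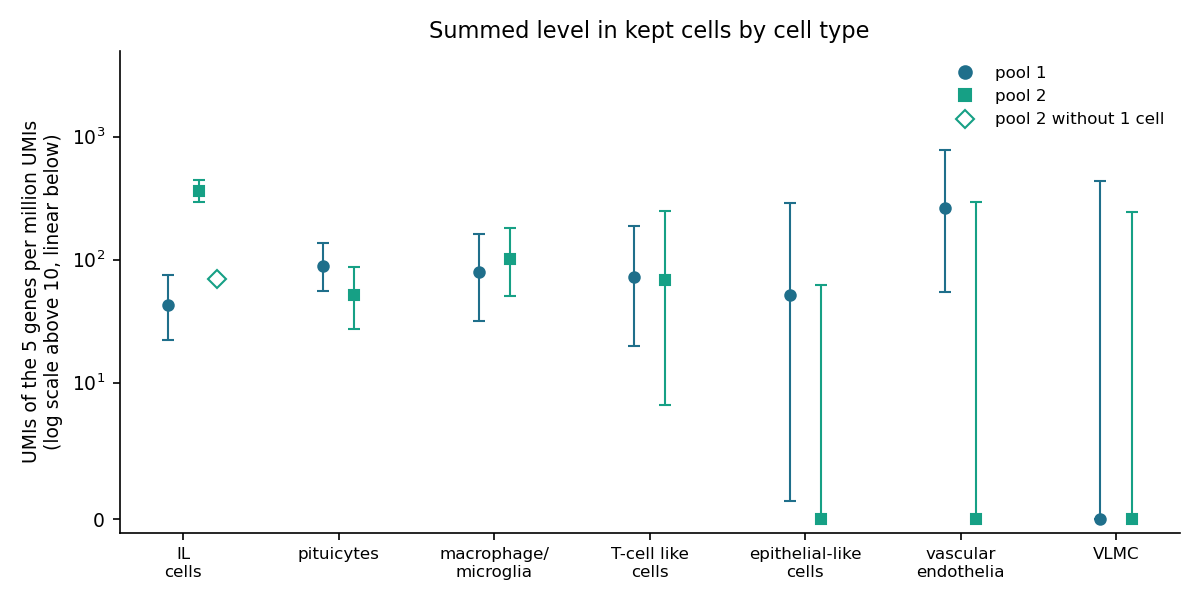
Summed level of the 5 genes in kept cells of each type, in UMIs per 1e6 UMIs (log scale above 10), for pool 1 (circles) and pool 2 (squares), with exact 95% Poisson intervals. The square of IL cells at 365 CPM falls to 69.0 CPM (open diamond) without 1 cell, and the intervals of the other types overlap each other.

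The authors' mean values per cluster over both pools show the same cell. In units of UMIs per 10000 per cell, the summed members were highest in the IL cluster named neural progenitor a at 3.10, with 0.874 for *Hba-a1*, 1.21 for *Hba-a2*, 0.912 for *Hbb-bs* and 0.0975 for *Hbb-bt*. In the other IL cluster, neural progenitor b, they came to 0.458. The remaining clusters lay between 0 and 1.32, the latter in pituicytes b. *Alas2* was listed at 0 in all 11 clusters, and the cluster named OPC/LVMC, the VLMC of this text, was at 0 for all 5 genes. These are means with no error given.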

How the data were processed

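The authors made UMI counts per gene and barcode with Cell Ranger, with 1500 forced cells and an mm10 reference. The submitters' processing notes name Cell Ranger 1.2.1, 2.0.0 and 2.1, STAR 2.5.1b and Seurat 2.3. The deposited counts are not normalized. Reads that match several genes are by default not counted by Cell Ranger, and the setting used is not given in the sources used here. The authors also deposited a table of expression values, the mean of UMI counts scaled to 10000 per cell for each of 11 clusters over both pools, made with Seurat. No column of another series was used.

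The 5 genes and all lists were chosen with earlier results of these data known. Cells were given the study's clusters by solving each column of the deposited table as a non-negative combination of the 528 kept cells, where each cell had a weight of at least 0.981 in 1 cluster and at most 0.0031 in another, and clusters were joined into the study's 7 types. No doublet caller was run and no cell was removed as one. The deposited clusters were built on these cells.

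UMIs were summed per pool and class. Intervals are exact (Clopper-Pearson for shares, Poisson for levels, 95% level). They cover counting error only and not the spread between barcodes, cells or mice. A count of 0 is given the limit of 3 counts. Thinned shares are expected values under drawing without replacement. Genes were tested by quasi-likelihood in edgeR 4.0.16 under R 4.3.3, after TMM and filterByExpr, and DESeq2 1.42.0 was an alternative. Adjusted p-values are Benjamini-Hochberg over all genes tested. P-values measure the spread between 2 pools and no more. Each pool gives 1 kept and 1 left-out sum from the same 5 mice, so the sums are paired, and their pool differences had a correlation of 0.17 over 8152 genes. On simulated counts the fit called 5.97% of genes changed 2-fold, 98.5% of those changed 4-fold and 100% of those changed 8-fold among 7924 genes tested, with 0 false calls. A 2-fold change is under the natural log cutoff of 1, so the rule itself keeps most such genes from a call. The simulated sums had the same dispersion of 0.0228 for every gene and no pool effect. These shares therefore need not hold for genes that differ more between the pools.

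Named are the members, every called gene of a list (up to 10) or else the 3 with most UMIs, the 5 genes most like the members with at least 100 UMIs, and up to 5 other called genes per direction. *Ube2l6*, *Bpgm*, *Slc25a37*, *Car2*, *Pim1*, *Bnip3l*, *Mkrn1*, *Gpx1*, *Hbb-y*, *Hbq1a*, *Retnlg* and the genes at 0 were named after their values were seen. Some genes that this rule takes in are not reported here. Sequences are RefSeq promoters (GRCm38.p6) and GENCODE vM21 transcripts. All 5 members matched both by symbol. The annotation that the authors counted with may differ. Alignments used Biopython 1.88. Alternatives were other limits for cells, barcode numbers, tools, filters and leaving out a pool.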

Additional observations from a re-analysis of the deposited data

Results flagged for a closer look

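The matrix of pool 1 also lists barcodes below the 1500 with most UMIs, which no comparison above uses. They held 10614 UMIs of the 5 genes, a level of 3584 CPM over 169436 barcodes, and are reported because this signal lies outside the barcodes analysed. The matrix of pool 2 held 1500 barcodes, so no such value is given for it. Of the lower barcodes of pool 1, 21 had over 100 UMIs and were hemoglobin-rich. These 21 had 2755 UMIs of the 5 genes, with alpha globin at 63.1% of their globin UMIs (exact interval 61.3% to 64.9%) and *Hbb-bt* at 0.908% (0.588% to 1.34%), against 55.0% alpha in the smaller hemoglobin-rich barcodes within the 1500. The 70018 barcodes with 11 to 50 UMIs that were not hemoglobin-rich had 2278 CPM, with alpha globin at 21.7% (20.4% to 23.0%) and *Hbb-bs* at 70.0% (68.6% to 71.5%), near the 24.2% and 71.4% of the other left-out barcodes of pool 1. The level fell to 1352 CPM at 51 to 100 UMIs and to 512 CPM at 101 to 251 UMIs. The smallest barcodes, hemoglobin-rich or not, lay outside this order. Those of over 1 and at most 10 UMIs had 22983 CPM, with *Hbb-bt* at 23.3% of globin UMIs, and those of 1 UMI had 7637 CPM.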

How the results depend on the processing

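The summed level in left-out barcodes was 38519 ± 9295 CPM and the log2 ratio to kept cells 8.50 ± 0.52. With no gene minimum the large hemoglobin-rich barcodes counted as cells, by construction, and kept cells had 31764 CPM, left-out barcodes 8012 CPM, the ratio turned to −2.04, and 18.9% of kept cells held a member UMI. With left-out barcodes of at most 1000 UMIs the level was 12093 CPM, the ratio 6.79 and 103 genes were called, with no gene of the erythroid list among those higher. In alternatives added after seeing the data, without hemoglobin-rich barcodes the level was 133 CPM and the ratio 0.34 ± 0.67, and without the 1 kept cell with over 10 member UMIs the ratio was 9.22. The share of kept cells with a member UMI (15.4%) was 7.41% when thinned to 1000 UMIs and 2.25% for at least 2 UMIs. With no filter on low counts 49 genes were called, 12 of them lower, against 29 and 2, and the neutrophil genes *Retnlg*, *S100a8* and *S100a9* were among those higher, from UMIs of pool 1. Without replicate 1 or replicate 2 the kept level was 68.6 to 161 CPM, the left-out level 31946 to 45092 CPM, the ratio 8.13 to 8.86 and the share 14.7% to 16.1%, and a fit of 1 pool has no residual degrees of freedom, so no count of calls was made. With the pool as a replicate block 35 genes were called, 8 of them lower, and *Car2* was the one change of call in the lists. The other settings gave 21 to 32 calls. By cell type, the deposited means, times 100, gave 56.1 for T-cell like cells against 70.8 CPM, since each cell then has the same weight, and no other type moved by more than its SD. The levels in kept cells rest on 48 and 117 UMIs, 74 of the latter from 1 cell.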

Other observations

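Other genes led the little RNA of hemoglobin-rich barcodes beside the erythroid list. Among genes with at least 5 UMIs there in each pool, ranked by the smaller of the 2 folds over all other barcodes (with 50 per 1e6 added), *Slc25a37*, *Ube2l6*, *Bpgm* and *Mkrn1*, all from the list, were among the first 5 outside the members. Of the genes outside every list, 3 that ranked next are given. *Ppp1cb*, a catalytic subunit of protein phosphatase 1, had 13 and 21 UMIs and folds of 48.2 and 56.8. *Tfdp2*, the dimer partner of E2F factors, had 6 and 6 UMIs and folds of 42.9 and 32.5. *Cd24a*, a surface protein also found on red cells, had 11 and 9 UMIs and folds of 41.2 and 23.5. These genes were named after their values were seen, in a class drawn from the same counts, so no test is given.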
